A study of Mus musculus with 11 samples.

Results

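*Fos*, *Fosb*, *Jun*, *Junb*, *Egr1*, *Atf3*, *Ier2*, *Nr4a1*, *Dusp1* and *Zfp36* are 10 immediate early genes among the 18305 genes counted in bulk RNA sequencing of murine oviduct, ovarian surface epithelium (OSE), organoids and tumors. They were chosen because *Fosb* is far higher in OSE than in oviduct tissue, so they were selected on values of that contrast, and their levels in both tissues are given as a description without a test. All 10 were found in the count table and had counts in each group. The study asked how organoids of both origins relate to their tissues and how the tumors grown from mutant oviductal organoids relate to the clones they came from. RNA was read as 3′ tags, the end of each transcript, and a level is given in CPM, the counts of a gene scaled to a common library total with the TMM method.

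The 27 libraries fall into 8 groups. Oviduct tissue (n = 3) and OSE tissue (n = 3) are wild type, with no strain or age of the donors in the labels. Oviductal organoids (n = 3) and OSE organoids (n = 2) came from wild-type C57BL/6 females of 8 to 12 weeks, each line being pooled from at least 6 mice. One further OSE organoid line was left out by the authors for contamination. Cas9-GFP oviductal organoids (n = 3) came from females of the same age range that express Cas9 and GFP ubiquitously from the *ROSA26* locus. TBP clones (n = 3) are clonal lines of such organoids in which 3 genes, among them *Trp53* and *Brca1*, were targeted and which were selected with Nutlin-3a, a compound that spares cells without working p53. TBP tumors (n = 6) grew from these clones in immunodeficient NSG mice, hosts that lack lymphocytes but keep stroma and myeloid cells. Tumor-derived organoids (n = 4) were cultured from such tumors under Nutlin-3a, T1-mes and T3-mes as mixtures with fibroblast-like cells and T2-epi and T4-epi as cystic organoids. RNA of tissues and tumors was extracted with Trizol and that of all organoids with a column kit, so tissue and extraction cannot be told apart, and whether the tissue samples saw enzymes before lysis is not given in the sources used here.

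Total counts per library ranged from 82239 (TBP clone 1) to 4531767 (TBP clone 3). At a count of 0 the true value may be as high as 3 counts, or 33.5 CPM in TBP clone 1 and 5.18 CPM or less in every other library. The limit covers counting error only, because amplified copies were not collapsed. The targeted *Trp53* had 34.5 to 61.0 CPM in Cas9-GFP organoids and 0 to 5.02 CPM in the TBP clones. The study reports fewer independent clones per combination of mutations than there are TBP clone libraries. Whether any of these libraries share a clone is not given in the sources used here. Both comparisons with the TBP clones treat each library as a separate replicate, and their independence was not tested. The study describes the tissue samples, organoid lines, tumors and tumor-derived lines as independent, but the tumor-derived lines descend from 1 TBP clone, and T1-mes and T2-epi came from adjacent tumors shown on a single mouse.

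Immediate early genes are transcribed soon after a signal reaches the cell, from factors that are already present and without new protein synthesis. Growth factors, wounding and stress act through MAP kinases and cyclic AMP on serum response factor and on factors that bind the cyclic AMP response element, and the response is normally shut down again within hours. *Fos*, *Fosb*, *Jun* and *Junb* encode subunits of the dimeric transcription factor AP-1, *Egr1* a zinc finger activator, *Nr4a1* an orphan nuclear receptor and *Atf3* a member of the ATF/CREB family. *Dusp1* encodes a phosphatase that switches MAP kinases off, *Zfp36* a protein that binds AU-rich elements and destabilises mRNAs, and *Ier2* a nuclear early response protein.

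RefSeq promoter windows (GRCm38.p6) were found for 8 of the 10 genes and not for *Egr1* and *Ier2*. The sequences of *Fosb* and 3 other members are shown because the same letters recur in them at different numbers. Each line gives the 250 bases before the RefSeq start, 5′ to 3′ on the gene's strand, with TGACG, the half-site of the cyclic AMP response element, or its reverse complement CGTCA in capitals. The gene spans given further below are from GENCODE, which can place the start elsewhere. The windows of *Nr4a1* and *Dusp1* thus lie inside those spans.
Fosb, chr7:19310046-19310295, minus strand: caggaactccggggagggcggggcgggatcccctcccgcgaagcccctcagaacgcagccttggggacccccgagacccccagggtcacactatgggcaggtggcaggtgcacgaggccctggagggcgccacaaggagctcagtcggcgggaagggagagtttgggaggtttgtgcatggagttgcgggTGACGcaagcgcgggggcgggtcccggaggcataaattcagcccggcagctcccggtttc
Fos, chr12:85473640-85473889, plus strand: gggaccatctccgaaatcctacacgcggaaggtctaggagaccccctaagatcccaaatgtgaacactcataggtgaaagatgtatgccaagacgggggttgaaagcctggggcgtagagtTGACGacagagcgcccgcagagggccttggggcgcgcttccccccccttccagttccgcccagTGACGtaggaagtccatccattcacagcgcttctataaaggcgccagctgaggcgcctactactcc
Nr4a1, chr15:101266596-101266845, plus strand: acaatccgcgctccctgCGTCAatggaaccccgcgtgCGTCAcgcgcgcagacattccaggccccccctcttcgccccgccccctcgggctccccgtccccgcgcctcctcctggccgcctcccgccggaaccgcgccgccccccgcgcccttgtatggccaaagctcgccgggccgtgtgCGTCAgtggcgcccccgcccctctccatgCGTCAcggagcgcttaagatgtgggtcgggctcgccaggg
Dusp1, chr17:26508473-26508722, minus strand: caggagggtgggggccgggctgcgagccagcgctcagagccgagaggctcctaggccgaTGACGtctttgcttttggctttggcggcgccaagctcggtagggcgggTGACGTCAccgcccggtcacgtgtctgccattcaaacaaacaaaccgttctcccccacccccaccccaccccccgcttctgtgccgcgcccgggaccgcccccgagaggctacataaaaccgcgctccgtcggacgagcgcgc
The half-site was searched on both strands and lay in 6 of the 8 member windows and in 17.8% of all 32851 windows. *Nr4a1* held 4 matches, the first base of each at -233, -213, -69 and -40 from the start. *Dusp1* held 3, of which the matches at -143 and -140 overlap in the full palindrome TGACGTCA, a sequence present in 1.55% of all windows. *Fos* had matches at -129 and -66 and *Fosb* a single match at -60. *Junb* and *Atf3* also had 1 match each, at -106 and -7, and *Jun* and *Zfp36* had none in these bases. The CArG box, the motif of serum response factor, was found only in *Zfp36* (at -58) against 1.47% of all windows, the AP-1 motif TGANTCA in no member window against 6.75%, and the TATA motif TATAAA only in *Fos* (at -33) against 12.4%. Bases outside these windows, and *Egr1* and *Ier2*, were not searched, so a motif not found here can lie elsewhere. A match is a description of these letters, and no measurement of binding is available for them.

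In the tissues the AP-1 genes separated OSE from oviduct. *Fosb* (chromosome 7, 19302696 to 19310051 in GRCm38), a FOS subunit, had 498, 685 and 668 CPM in OSE tissue and 1.45, 6.58 and 4.89 CPM in oviduct tissue. *Fos* (chromosome 12, 85473890 to 85477273) had 799, 1291 and 1988 CPM in OSE tissue against 21.8, 48.7 and 63.5 CPM. *Jun* (chromosome 4, 95049034 to 95052222), the partner subunit, had 5532, 8148 and 13370 CPM against 1038, 904 and 1299 CPM. The lowest OSE library lay above the highest oviduct library for each of the 3 genes, but *Jun* was well expressed in oviduct tissue, where *Fosb* rested on 2 to 5 counts. *Junb* (chromosome 8, 84974484 to 84978718) ran from 301 to 764 CPM in OSE tissue and from 25.0 to 34.8 CPM in oviduct tissue. In bulk tissue, fewer cells of a type and less RNA per cell cannot be told apart.

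The other transcription factors and the inhibitors had the same order. *Atf3* (chromosome 1, 191170296 to 191218039) had 598, 772 and 1320 CPM in OSE tissue and 15.2, 11.8 and 28.1 CPM in oviduct tissue. *Nr4a1* (chromosome 15, 101254269 to 101274795) had 280, 388 and 612 CPM against 10.2, 7.90 and 9.78 CPM. *Egr1* (chromosome 18, 34859823 to 34864984) had 284, 364 and 443 CPM against 7.98, 11.8 and 25.7 CPM. OSE tissue 3 was the highest library for each of these genes. *Ier2* (chromosome 8, 84661331 to 84662852) ran from 550 to 832 CPM against 39.5 to 78.2 CPM, *Dusp1* (chromosome 17, 26505590 to 26562128) from 77.9 to 154 CPM against 7.90 to 12.2 CPM, and *Zfp36* (chromosome 7, 28376784 to 28380253) from 175 to 361 CPM against 23.7 to 31.8 CPM. No member overlapped between the tissues, and the share of all genes without overlap is not given here.

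On the log2 scale the fitted difference, OSE over oviduct tissue, was 7.29 for *Fosb* (standard error 0.32), 5.60 for *Atf3* (0.34), 5.47 for *Nr4a1* (0.32), 4.96 for *Fos* (0.38) and 4.64 for *Egr1* (0.30). It was 3.94 for *Junb* (0.31), 3.64 for *Ier2* (0.24), 3.38 for *Dusp1* (0.31), 3.12 for *Zfp36* (0.28) and 3.03 for *Jun* (0.29). The median over the 10 genes was 4.29, against 0 over all 8787 genes with a fit. In this contrast 24.3% of genes were called higher and 26.9% lower in OSE tissue at an adjusted p of 0.05, a background from which nothing is read for the members because they were chosen on it. The 10 genes took 1.13% to 2.27% of all counts in OSE tissue libraries and 0.100% to 0.148% in oviduct tissue libraries. Most of this was *Jun*, with 25185 of 38644 member counts in OSE tissue 3 and 1430 of 1673 in oviduct tissue 1.

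**Figure D1:**
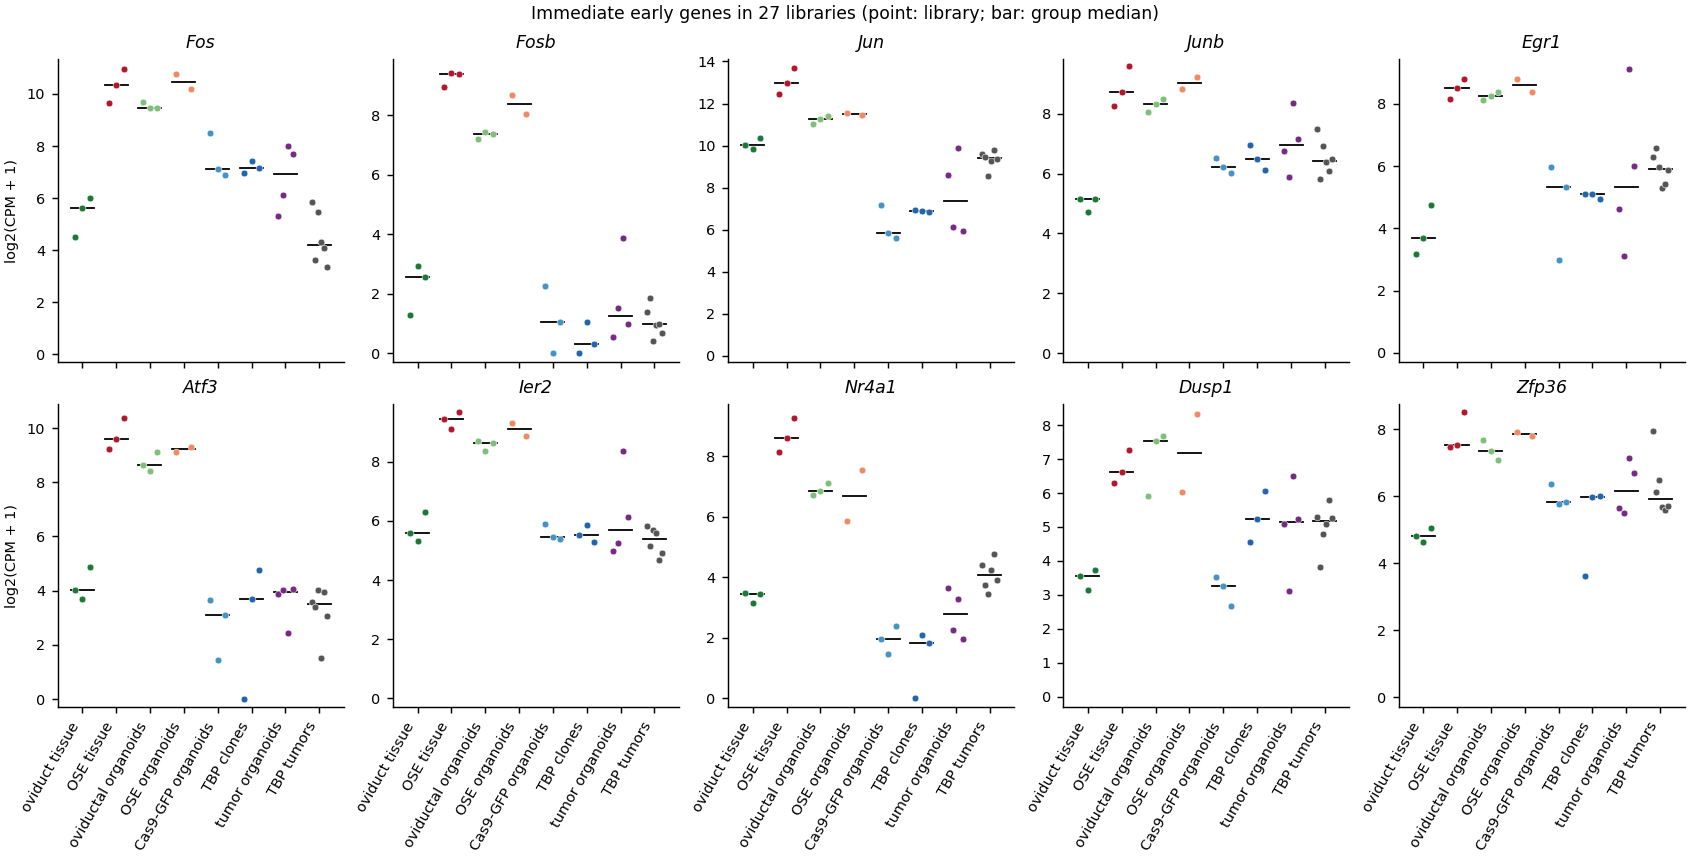
Level of each of the 10 genes in every library, as log2(CPM + 1) on the vertical axes, by group. Each point is a library and each bar a group median. OSE tissue and both wild-type organoid groups are the 3 upper groups of every panel, and for *Jun* the oviduct tissue points (904 to 1299 CPM) lie above those of Cas9-GFP organoids (47.0 to 145 CPM).

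Cell type composition moved with the same contrast. Of the marker list for OSE and mesothelium, 13 of 13 genes were above 3 CPM in a library of OSE tissue, with *Upk1b* at 84.4 to 109 CPM and *Lgr5* at 31.3 to 32.6 CPM, whereas *Upk3b* had only 1.06 to 6.77 CPM. The list as a whole was divided between the tissues, with 5 of 12 genes tested higher in OSE tissue (*Gata4*, *Lgr5*, *Upk1b*, *Cdh2* and *Msln*) and 4 lower (*Krt18*, *Krt8*, *Krt19* and *Nr2f2*), a median log2 difference of -0.03, and a sum of 1350 to 1640 CPM in OSE and 1710 to 2060 CPM in oviduct tissue. OSE tissue also held markers of other ovarian cells. The 7 granulosa markers summed to 4700 to 5750 CPM in OSE tissue and 56.6 to 141 CPM in oviduct tissue, and the 6 steroidogenic markers to 6310 to 7770 CPM and 57.3 to 247 CPM. The 5 oocyte markers summed to 405 to 589 CPM and 6.53 to 9.78 CPM. In the opposite direction, the 6 smooth muscle markers summed to 515 to 744 CPM in OSE tissue and 5570 to 6990 CPM in oviduct tissue, and the secretory markers, led by *Ovgp1*, to 103 to 155 CPM and 73800 to 115000 CPM. Their part in the difference of the members was not tested.

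Organoids of both origins had high levels of the members, with few counts for most markers of those other cells. In OSE organoids the steroidogenic markers summed to 8.39 and 38.0 CPM and the granulosa markers to 39.7 and 80.5 CPM, and the 6 smooth muscle markers to at most 6.68 CPM in any wild-type organoid library. The granulosa list summed to 335 to 548 CPM in oviductal organoids, where 5 of its 7 genes had 3 CPM or less in every library. *Fosb* had 412 and 264 CPM in OSE organoids and 146, 172 and 164 CPM in oviductal organoids. *Fos* had 1722 and 1166 CPM and 823, 710 and 696 CPM. *Atf3* had 550 and 637 CPM and 401, 340 and 548 CPM. The 3 genes were far above oviduct tissue in organoids of either origin. Each of the 10 genes was higher in all 3 oviductal organoid libraries than in any oviduct tissue library, by 2.26-fold for *Jun* and 37.3-fold for *Fosb* as ratios of mean CPM. OSE organoids overlapped with OSE tissue for 7 genes and were lower for *Fosb*, *Jun* and *Nr4a1*, whose mean CPM were 0.548, 0.323 and 0.283 times those of the tissue. Comparisons with tissue share the libraries on which the genes were chosen and were not tested. The share of all genes without overlap is not given here, so these counts of members are a description only.

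Whether the origin of an organoid sets the level of these genes was tested between the wild-type organoid groups, which share no library with the tissues. No member was called, with 0.0864% of 9257 genes called in either direction, all of them higher in oviductal organoids. At an unadjusted p under 0.05 there were 3 of the 10 members, *Fosb*, *Fos* and *Junb*, all lower in oviductal organoids. Of all 9257 genes, 598 were higher and 462 lower at that threshold. The log2 fold change, oviductal over OSE organoids, was -1.05 for *Fosb* (standard error 0.27, 95% interval -1.70 to -0.40, adjusted p = 0.243), -0.93 for *Fos* (interval -1.58 to -0.29, adjusted p = 0.295) and -0.72 for *Junb* (interval -1.36 to -0.08, adjusted p = 0.394). All 10 fitted differences were negative, with a median of -0.44 against 0.01 over all genes. The groups overlapped for *Nr4a1* and *Dusp1*, which differed between the OSE lines. *Dusp1* had 64.9 and 321 CPM and *Nr4a1* 57.2 and 184 CPM in OSE organoids 1 and 2. *Dusp1* also varied among oviductal organoids, at 59.1, 185 and 203 CPM. Without OSE organoids 2 the adjusted p of *Fos* was 0.00531 and that of *Fosb* 0.00561, in a fit that lends the spread of the oviductal lines to a single OSE line, and *Nr4a1* and *Dusp1* were fitted at 1.09 and 1.23, neither of them called. OSE organoids 2 also carried more oviductal marker RNA than OSE organoids 1, with *Ovgp1* at 3243 against 19.1 CPM and the 6 secretory markers at 3731 against 868 CPM, and the part of this in the result was not tested. DESeq2 called no member, and no gene of the 6 other lists was called by edgeR.

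Cas9-GFP oviductal organoids differed sharply from the C57BL/6 oviductal organoids, in cultures of the same origin that share no library with the tissues. All 10 members were lower in Cas9-GFP organoids, against a background of 13.3% of 8323 genes called lower and 13% called higher. No member overlapped between the groups, and the share of all genes without overlap is not given here. *Fosb*, at 146 to 172 CPM in the wild-type lines, had 3.82, 0 and 1.07 CPM, from 4, 0 and 1 counts (log2 fold change -6.30, standard error 0.41, adjusted p = 2.10e-06). *Atf3* had 11.5, 1.73 and 7.49 CPM (-5.79, standard error 0.36, adjusted p = 2.00e-06). *Nr4a1*, at 104, 115 and 137 CPM in the wild-type lines, had 2.87, 1.73 and 4.28 CPM (-5.20, standard error 0.34, adjusted p = 2.10e-06). These 3 genes were thus near the limit of detection in Cas9-GFP organoids. *Jun* fell from 2082, 2496 and 2729 CPM to 145, 57 and 47.0 CPM (-4.84, standard error 0.37, adjusted p = 5.53e-06).

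The remaining members fell by less. The log2 fold change was -4.16 for *Dusp1* (standard error 0.52), -2.99 for *Ier2* (0.21) and -2.98 for *Egr1* (0.39), with adjusted p of 0.000166, 3.23e-06 and 0.000263. *Junb* changed by -2.02 (0.21), *Fos* by -1.83 (0.34) and *Zfp36* by -1.37 (0.23), with adjusted p of 4.58e-05, 0.00208 and 0.00117. *Fos* was still at 365, 136 and 117 CPM in Cas9-GFP organoids, above every oviduct tissue library, where *Fosb* was not. The median over the members was -3.58, against 0 over all genes. Cas9-GFP organoids 1 had the highest level in its group of every member except *Nr4a1*. In a single fit of all 27 libraries *Fos* (adjusted p = 0.0745) and *Zfp36* (adjusted p = 0.112) were no longer called.

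**Figure D2:**
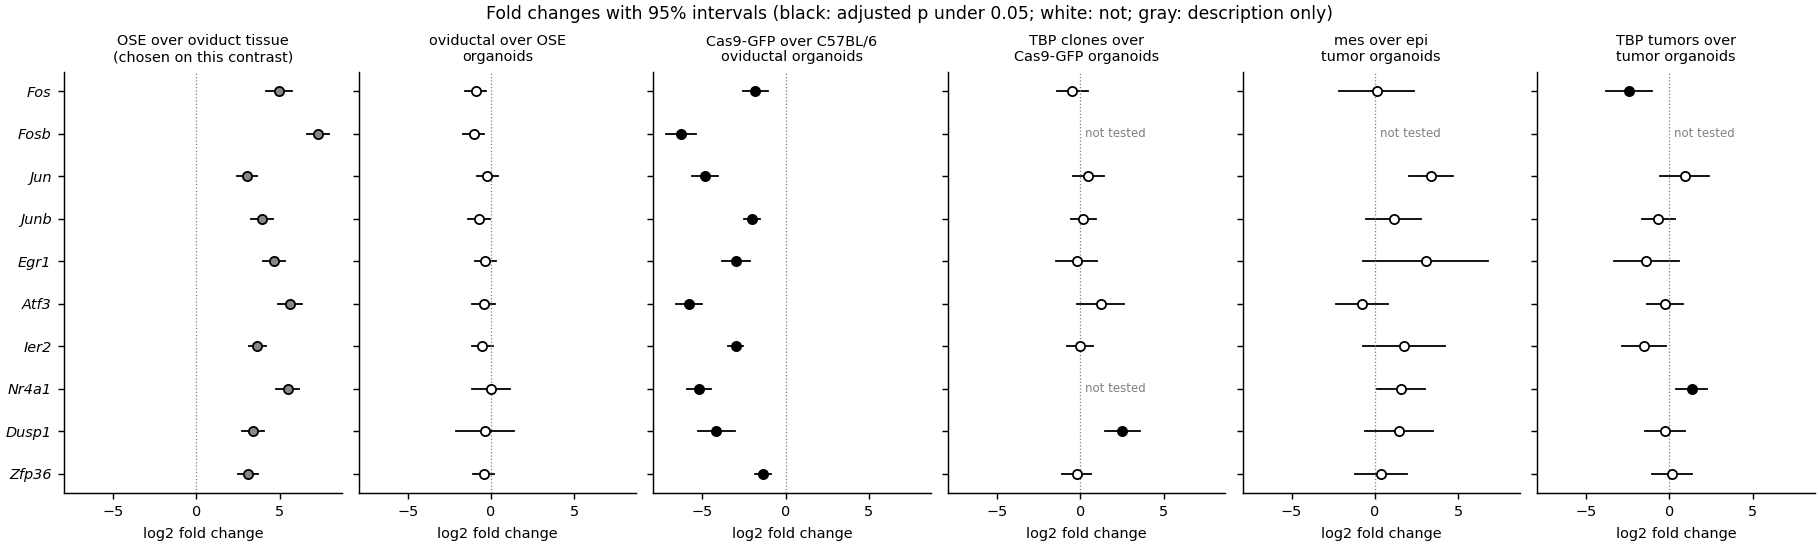
Log2 fold change of each gene (horizontal axes) with its 95% interval in 6 comparisons. Black points have an adjusted p under 0.05, white points do not, and gray points are the contrast on which the genes were chosen and carry no test. All 10 points of the Cas9-GFP comparison are black and lie between -6.30 and -1.37.

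Other early response genes were read from lists written with earlier results of these data known. Of the secreted and structural early genes, 9 of 11 tested were lower in Cas9-GFP organoids. They included *Arc* (log2 fold change -6.26, standard error 0.36), the matrix-associated growth regulators *Cyr61* (-4.20, 0.30) and *Ctgf* (-5.00, 0.42) and the kinase gene *Sgk1* (-2.50, 0.23). Of the feedback inhibitors 13 of 19 were lower and 1 higher, with *Btg2* at -3.40 (0.25), the receptor kinase antagonist *Spry2* at -2.13 (0.19), *Zfp36l1* at -2.19 (0.21) and the ERK phosphatase *Dusp6* at -2.29 (0.29). Of the related transcription factors 6 of 18 were lower and none higher, led by *Egr2* (-4.48, 0.57), *Klf6* (-1.44, 0.19), *Maff* (-2.47, 0.34) and *Hes1* (-1.12, 0.22).

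The reduction did not extend to each AP-1 gene or to the kinases upstream. *Jund* had 447 to 552 CPM in wild-type and 470 to 605 CPM in Cas9-GFP organoids and *Fosl2* 90.1 to 150 CPM and 79.1 to 131 CPM. Neither was called, and the groups overlapped. Of 20 genes of upstream signalling, 2 were called, both higher (*Map2k3* at 0.82 and *Map2k1* at 0.61), and of 6 genes of the integrated stress response only *Slc7a11* (3.05, standard error 0.59). Of 15 heat shock genes 5 were lower and none higher, with *Hspb1* at -2.10 and *Hspa8* at -0.59. *Hspa1a* (-4.07) and *Hspa1b* (-1.05) are near-identical copies whose reads may be divided uncertainly.

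Several other features moved with this comparison. The secretory marker *Ovgp1* fell from 14640 to 22940 CPM in wild-type to 66.3 to 94.97 CPM in Cas9-GFP organoids (log2 fold change -7.91, adjusted p = 1.15e-08). Ciliated markers summed to 66.8 to 96.5 CPM and 3.45 to 40.6 CPM. Total counts were 1455037 to 2472821 and 600579 to 1038141. Mouse line, culture and library set cannot be told apart here, and the part of these features in the result was not tested. Markers of stroma were at or near 0 in both groups, with the 6 fibroblast markers summing to at most 5.08 CPM and the 6 endothelial markers to at most 0.954 CPM in any of the 6 libraries.

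The TBP clones were compared with the Cas9-GFP organoids, which also serve in the comparison above. The members stayed low. Of 8 that passed the filter on low counts, 1 was called higher and none lower, with 0.389% of 7708 genes called higher. This was *Dusp1*, with 22.3, 36.4 and 65.7 CPM in the clones against 10.5, 8.63 and 5.35 CPM (log2 fold change 2.52, standard error 0.49, adjusted p = 0.0345), where clone 1 rests on 2 counts. *Fosb* had 0, 2 and 1 counts and *Nr4a1* 0, 6 and 11 counts in the clones and were not tested. The intervals of the others spanned 0, from -1.39 to 0.46 for *Fos* and from -0.43 to 1.40 for *Jun*. The call of *Dusp1* was lost without clone 3 (adjusted p = 0.105) and without Cas9-GFP organoids 1, 2 or 3 (adjusted p = 0.199, 0.157 and 0.279). Of 19 feedback inhibitors 1 was called higher, the phosphatase gene *Dusp4* (2.96, adjusted p = 0.0380), and no related transcription factor, heat shock, integrated stress response or upstream signalling gene was called.

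The tumor-derived organoids were compared with the same clones, and no gene was called (0% of 9496 genes by edgeR, with 449 genes higher and 305 lower at an unadjusted p under 0.05). None of the 8 members tested had an unadjusted p under 0.05, and DESeq2 called none of them. The widest intervals were those of *Egr1* (log2 fold change 2.34, interval -0.45 to 5.13) and *Jun* (1.59, interval -0.35 to 3.54). Among the 4 tumor-derived lines the standard deviation was 265 CPM for *Egr1* and 408 CPM for *Jun*, against 2.30 and 5.05 CPM in the clones. TBP clone 1 rests on 3 counts of *Egr1* and 11 of *Jun*.

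T3-mes stood apart from the other 3 lines. *Egr1* had 560 CPM in T3-mes, against 23.7, 7.60 and 63.6 CPM in T1-mes, T2-epi and T4-epi. *Ier2* had 326 CPM against 31.0, 37.5 and 69.9 CPM, and *Junb* 326 CPM against 106, 57.5 and 142 CPM. *Fosb* had 13.6 CPM from 28 counts, where the other lines had 1 to 4 counts. The levels of *Egr1* and *Junb* in T3-mes reached those of wild-type oviductal organoids (277 to 329 and 267 to 357 CPM), and *Ier2* lay just under their range of 333 to 412 CPM, whereas *Fosb* there was 146 CPM or more. *Atf3* went the other way, with 4.37 CPM in T3-mes and 13.7 to 15.5 CPM in the other lines.

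**Figure D3:**
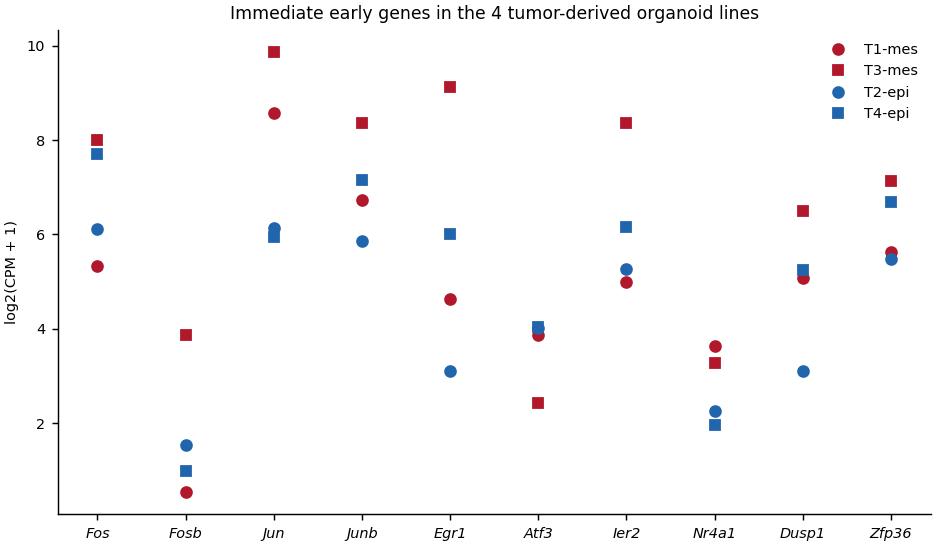
Level of the 10 genes in the 4 tumor-derived organoid lines, as log2(CPM + 1). T3-mes (red squares) is the highest line for *Egr1*, *Ier2*, *Junb* and *Fosb* and the lowest for *Atf3*, and both mes lines (red) lie above both epi lines (blue) for *Jun*.

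*Jun* followed culture type. T1-mes had 381 CPM and T3-mes 929 CPM, while the epi lines had 68.9 (T2) and 60.2 CPM (T4). The fitted difference was 3.36 on the log2 scale (standard error 0.54), with an adjusted p of 0.0582, just short of the threshold. With 2 lines against 2, none of the 9 members tested was called, against a background of 1% of 9775 genes called higher in mes lines. At an unadjusted p under 0.05 there were 2, *Jun* and *Nr4a1*, both higher in mes lines. Of all genes, 883 were higher and 495 lower at that threshold. *Nr4a1* had 11.4 and 8.73 CPM against 3.80 and 2.91 CPM (1.57, adjusted p = 0.316). *Jun* was called by DESeq2 (adjusted p = 6.73e-07) and with the line pairs (T1 and T2, T3 and T4) as a replicate block (3.21, adjusted p = 0.0433). Its log2 fold change was 2.55 to 3.83 when a line was left out. Such fits leave 1 line in a group and take the spread from the other group, so no call is read from them. The 6 fibroblast markers moved with culture type, summing to 3120 CPM in T1-mes, 7532 CPM in T3-mes, 31.3 CPM in T2-epi and 101 CPM in T4-epi, and their part was not tested. Of these markers 5 of 6 were called higher in mes lines. Of the early gene and stress lists only *Arc* was called, with 57.9 and 140 CPM against 2.37 and 4.37 CPM (4.86, standard error 0.67, adjusted p = 0.0391).

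Tumors were compared with the tumor-derived organoids, which share their origin in TBP clones. *Fos* was lower in tumors, with a lowest, median and highest level of 9.21, 17.5 and 56.2 CPM, against 39.2, 67.9, 254 and 208 CPM in the organoids (log2 fold change -2.44, standard error 0.63, adjusted p = 0.0158). The groups overlapped through T1-mes and Tumor 1 and Tumor 3. *Nr4a1* was higher in tumors, at 9.82, 16.0 and 26.5 CPM against 2.91 to 11.4 CPM (1.33, standard error 0.43, adjusted p = 0.0392). These were the 2 members called of 9 tested, against a background of 15.1% of 10605 genes called higher and 12.3% called lower. *Fosb* had 1 to 3 counts in every tumor and was not tested.

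*Jun* in tumors was at 376, 678 and 883 CPM, above T2-epi and T4-epi in every tumor, but its difference from the 4 lines was not called (0.92, interval -0.56 to 2.40, adjusted p = 0.342), and it was called without T3-mes (adjusted p = 0.0285). *Ier2* (-1.50, interval -2.83 to -0.18, adjusted p = 0.0880) was called without T1-mes (adjusted p = 0.0430). The call of *Nr4a1* was lost without Tumor 1, 4, 5 or 6, T2-epi or T4-epi, with adjusted p of 0.0549 to 0.101, and that of *Fos* was kept without any 1 library. Of the feedback inhibitors 6 of 25 tested were lower and 2 higher in tumors, among them *Ier5* (2.03), *Spry2* (-2.25), *Ppp1r15a* (-2.30) and *Ier3* (-2.98). Related transcription factors were called in both directions, with *Irf1* (1.10) and *Klf10* (0.86) higher and *Klf4* (-1.14) and *Maff* (-1.58) lower, as were the secreted and structural genes *Plk2* (2.65), *Ptgs2* (-4.41) and *Cxcl1* (-1.99). Of heat shock genes 3 of 14 were higher and 1 lower, of integrated stress response genes 2 of 10 were lower and of upstream signalling genes 3 of 22 were higher and 4 lower. Cell type markers moved with this comparison. The 9 myeloid markers summed to 795 to 2410 CPM in tumors and 28.6 to 332 CPM in organoids. The 6 fibroblast markers summed to 9650 to 57000 CPM and 31.3 to 7530 CPM. Fibroblast markers do not tell host from transplanted cells here, because the study found GFP-positive cells with mesenchymal features in tumors and mixed cultures. The part of these markers in the differences was not tested.

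The balance of *Jun* to *Fos* counts within a library, which does not depend on the scaling between libraries, set the groups apart in another order. The ratio was 0.398 to 0.418 in Cas9-GFP organoids, 0.686 to 1.0 in TBP clones, 1.76 and 2.39 in OSE organoids, 2.53 to 3.92 in oviductal organoids and 6.31 to 6.92 in OSE tissue. It was highest in oviduct tissue (18.6, 20.4 and 47.7) and in tumors (8.82 to 70.3, median 43.7). Of the tumor-derived organoids, the epi lines had 1.01 and 0.290 and T1-mes and T3-mes 9.72 and 3.66. Oviduct tissue and tumors were thus the groups in which *Jun* was kept and *Fos* was low. A ratio of counts depends on the tags that each gene yields, so only its change between libraries is informative.

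**Figure D4:**
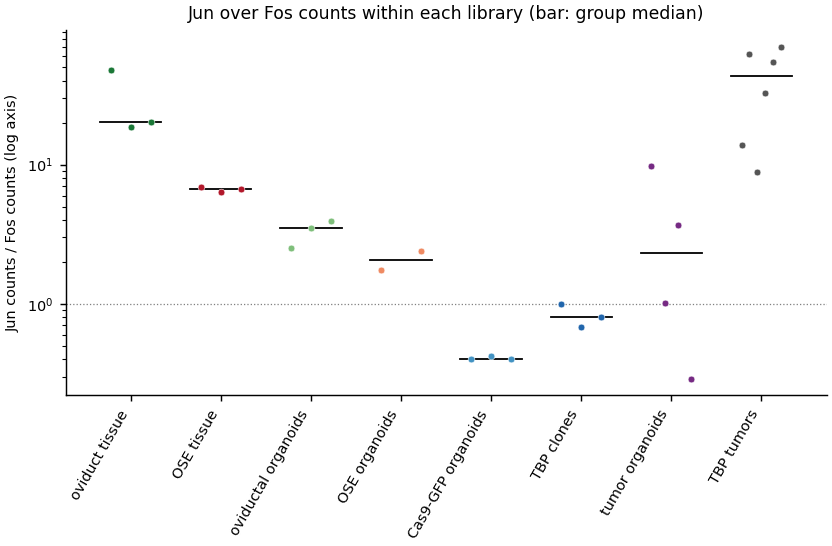
Counts of *Jun* divided by counts of *Fos* in each library (logarithmic vertical axis), by group, with group medians as bars. Cas9-GFP organoids lie near 0.4, and oviduct tissue and tumors lie between 8.82 and 70.3.

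Across the 8 groups the members shared their upper and lower levels. OSE tissue, OSE organoids and oviductal organoids held the 3 highest group medians of each gene. Between them the order varied: *Fosb* (668, 338 and 164 CPM) and *Jun* (8148, 2912 and 2496 CPM) had groups without overlap, while the 3 groups overlapped from neighbour to neighbour for *Fos*, *Egr1*, *Junb*, *Dusp1* and *Zfp36*. The 8 libraries of these groups lay above the other 19 for *Fos*, *Fosb*, *Jun*, *Atf3*, *Ier2* and *Nr4a1*. T3-mes broke this separation for *Egr1* and *Junb*, T3-mes and TBP clone 3 for *Dusp1*, and Tumor 1 and T3-mes for *Zfp36*. Among the 5 lower groups, neighbours in the order of medians mostly overlapped. Exceptions were *Jun*, where oviduct tissue (median 1038 CPM) lay above tumors, and *Fos*, where Cas9-GFP organoids (136 CPM) lay above oviduct tissue (48.7 CPM). For *Egr1*, *Junb* and *Zfp36*, oviduct tissue had the lowest median and did not overlap with the group next in order. Single libraries of other groups were still below it, *Egr1* at 6.91 CPM in Cas9-GFP organoids 2 and *Zfp36* at 11.2 CPM in TBP clone 1. These levels were partly used in choosing the genes and are a description.

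Over the 27 libraries Pearson's r between 2 members, on log2 CPM, ranged from 0.45 to 0.96 (median 0.77 over 45 pairs). The points share libraries, groups and depth, so r describes these libraries only. After the mean of each group was taken off, the median was 0.44, with 41 of 45 pairs above 0, and without T3-mes it was 0.30. *Egr1* and *Ier2* had r of 0.80 by this measure, and *Atf3* stood outside, with a median r of 0.02 to the other 9. Among 8683 other genes with a mean of at least 10 CPM, the 5 most like *Fosb* included *Egr2* (r = 0.870), *Sgk1* (0.861), *1810058I24Rik* (0.853) and *Tpmt* (0.826). With the mean of the members they included *Egr2* (0.905), *Btg2* (0.866), *Sgk1* (0.830) and *1810058I24Rik* (0.811). *Egr2*, a paralog of *Egr1*, had a median of 58.2 CPM in OSE tissue, 53.1 and 26.9 CPM in OSE and oviductal organoids and 7.45 CPM or less in the other groups.

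The other early gene lists were high in part of the same libraries. In OSE over oviduct tissue 15 of 18 related transcription factors and 10 of 20 feedback inhibitors were called higher, and 0 and 3 lower. Of the secreted and structural genes 10 of 11 were called higher and 0 lower. Of all 8787 genes, 24.3% were called higher and 26.9% lower. All list counts for these tissues, also those below, belong beside these shares and share the contrast on which the members were chosen. Examples on the log2 scale are *Egr2* (5.49), *Klf6* (2.29), *Ppp1r15a* (3.36), *Socs3* (3.61), *Cxcl1* (4.44) and *Cyr61* (3.70). Secreted and structural genes summed to 320 to 367 CPM in oviduct tissue, 1150 to 1340 CPM in OSE tissue, 4510 to 8560 CPM in oviductal organoids and 558 to 737 CPM in Cas9-GFP organoids. Their sum was thus higher in oviductal organoids than in OSE tissue, whereas the sum of the members was lower. Among the members, *Dusp1* also had the higher median in oviductal organoids (185 against 96.6 CPM), and the others had the lower one. Heat shock genes summed to 5490 to 7510 CPM in oviduct tissue and 6050 to 7910 CPM in OSE tissue, and genes of the integrated stress response to 740 to 916 CPM and 951 to 1030 CPM. Of 15 heat shock genes 6 were higher and 4 lower in OSE tissue, and of 7 integrated stress response genes 3 and 3, with medians of 0.30 and 0.26 on the log2 scale. Upstream signalling genes summed to 1350 to 1500 CPM and 1590 to 1820 CPM, with 4 higher and 2 lower of 18.

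**Figure D5:**
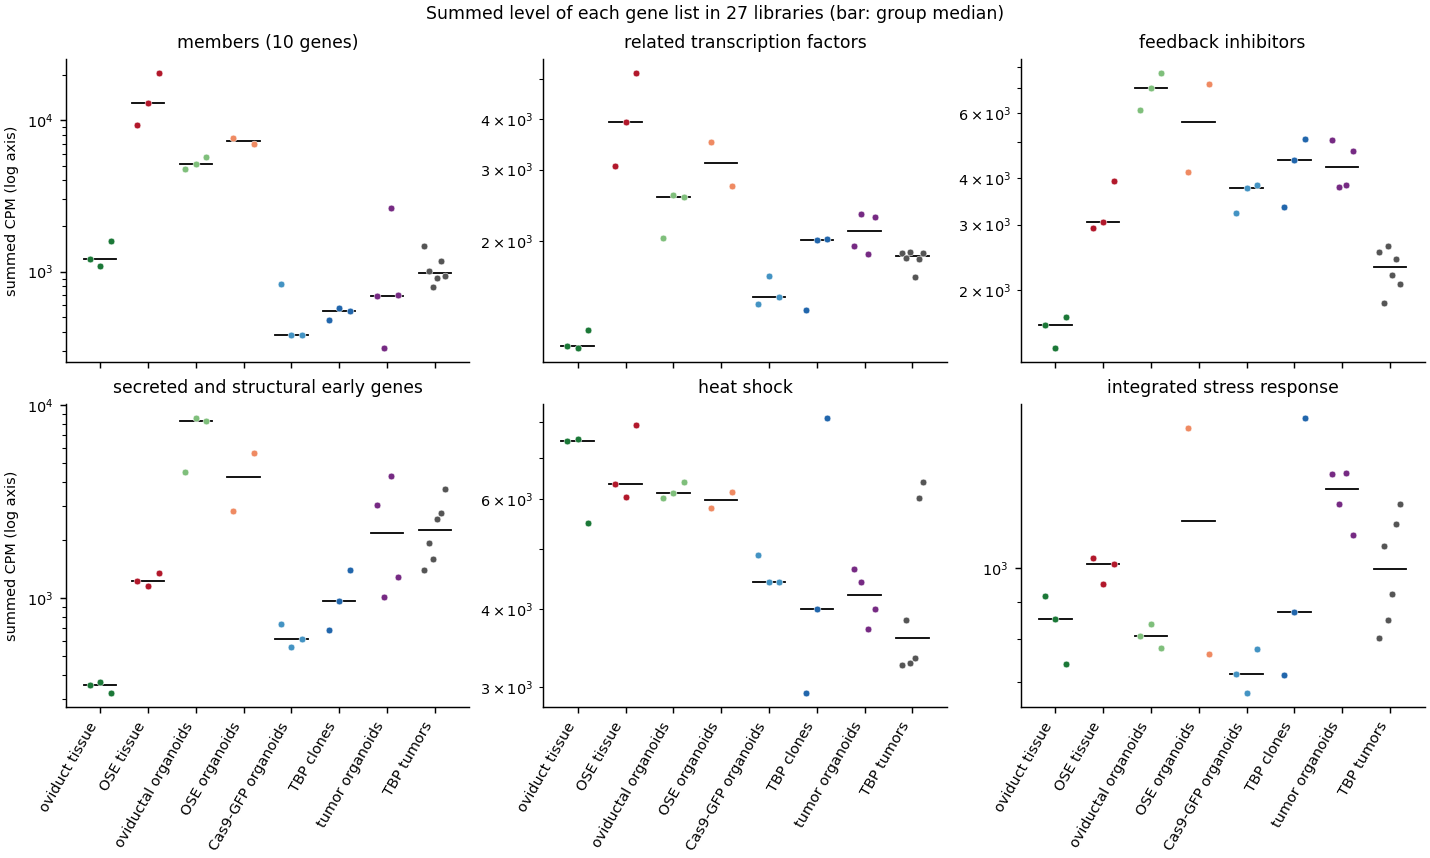
Summed CPM of the 10 members and of 5 other gene lists in each library (logarithmic vertical axes), with group medians as bars. The members span 312 to 20500 CPM and the secreted and structural genes 320 to 8560 CPM, whereas heat shock genes stay between 2930 and 8120 CPM.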

How the data were processed

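RNA was sequenced as 3′ tags with CEL-Seq2. According to the study's methods and the submitters' processing notes, the authors aligned reads with BWA to GRCm38, kept unique alignments, counted them by strand and deposited raw read counts per gene, without collapsing copies by molecular identifiers, in 1 table of 18306 features and 27 libraries listed under 11 sample entries. The notes also name DESeq2 1.18.0. A spike-in feature with 1 count was left out, which left 18305 genes. No column was left unused.

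The deposited counts were tested with edgeR 4.0.16 (TMM scaling, filterByExpr on the libraries compared, quasi-likelihood F-test, Benjamini-Hochberg adjustment over all genes tested, threshold 0.05) in R 4.3.3, after a check on simulated data with 200 changed genes. Intervals are 95% intervals of the log2 fold change. Alternatives were DESeq2 1.42.0, its size factors, no filter, a single fit of all 27 libraries, a replicate block and leaving out each library. Correlations used log2 CPM with a prior count of 2, and genes with a mean of at least 10 CPM. Comparisons share libraries: oviductal organoids serve in the first and second test, Cas9-GFP organoids and the clones each in neighbouring tests and the tumor-derived organoids in 3. No replicate pair (37 compared) looked like a library deposited more than once, the lowest chi-square being 2.53 per gene.

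The members and the 6 other lists (related transcription factors, feedback inhibitors, secreted and structural early genes, heat shock, integrated stress response, upstream signalling), and the marker lists, were chosen with earlier results of these data known. The text names all members, and of other genes in lists those that were called or are close relatives, with genes among the 5 most correlated. Some genes that these rules name are not reported here. The r between deviations from the group mean was 0.04 to 0.14 over 9 same-numbered pairs of libraries and -0.11 to 0.02 over differently numbered ones. This does not settle whether replicate numbers pair the libraries.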

Additional observations from a re-analysis of the deposited data

Results flagged for a closer look

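*Atf3* had 4.37 CPM in T3-mes, while the other 3 tumor-derived organoid lines had 13.7 to 15.5 CPM. Its gap to the nearest line was 0.893 of the range of the group, above Dixon's 95% critical value for 4 samples. Of 20 such tests on the members this was the 1 that passed, and chance passes about 1 in 20.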

How the results depend on the processing

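Of 54 member results with a test, 27 kept their direction and their side of the threshold under every alternative, and 18, none of them called in either fit, changed direction in at least 1 alternative. Between oviductal and OSE organoids 0 members were called, and 0 to 2 when a library was left out. All 10 members called in Cas9-GFP organoids were called whichever library was left out and with the replicate block, and 8 in the single fit of all libraries. In TBP clones the count fell from 1 to 0 in that fit (*Dusp1*, adjusted p = 0.124) and with the replicate block (2.48, adjusted p = 0.0634), and was 0 to 1 when a library was left out. Between tumor-derived organoids and clones it was 0 throughout. Between mes and epi lines it was 1, *Jun*, instead of 0 with DESeq2, in the single fit (adjusted p = 0.000398), without the filter (adjusted p = 0.0153) and with a replicate block of paired lines (3.21, adjusted p = 0.0433). Leaving out a library there left 1 line in a group, and no count is read from those fits. In tumors the 2 calls became 4 in the single fit, which added *Jun* (adjusted p = 0.000201) and *Ier2* (adjusted p = 0.0150), and 1 without the filter (*Nr4a1*, adjusted p = 0.0506), and were 1 to 3 when a library was left out. The cause of these changes was not tested. The median difference of the members between tissues, 4.29 on the log2 scale, was 4.03 to 4.61 when a library was left out. Same-numbered libraries correlated at 0.04 to 0.14 and differently numbered ones at -0.11 to 0.02, which does not settle whether the groups of 3 are paired. Of the tumor-derived lines, T1-mes and T2-epi were taken from adjacent tumors shown on a single mouse, and whether T3-mes and T4-epi share a mouse is not given in the sources used here. Depth limits *Fosb* and *Nr4a1* in Cas9-GFP organoids and TBP clones, where all libraries but 1 had under 10 counts of either gene, and everything in TBP clone 1.

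The changes of direction all concern log2 fold changes that were not called. Between oviductal and OSE organoids, *Nr4a1* ran from -0.63 to 1.09 and *Dusp1* from -1.11 to 1.23 when a library was left out. In TBP clones the ranges were -0.79 to 0.20 for *Fos*, -0.01 to 0.37 for *Junb*, -0.70 to 0.36 for *Egr1* and -0.27 to 0.20 for *Ier2*. With the replicate block *Egr1* was at 0.27 and *Ier2* at 0.05, and without the filter *Ier2* was at 0.00. Between tumor-derived organoids and clones they were -0.53 to 0.24 for *Fos*, -0.05 to 2.72 for *Egr1*, -0.64 to 0.35 for *Atf3*, -0.07 to 1.59 for *Ier2* and -0.87 to 0.32 for *Dusp1*. Between mes and epi lines they were -1.82 to 1.11 for *Fos*, which was at -0.23 with the replicate block, -0.59 to 5.26 for *Egr1*, -0.80 to 2.58 for *Ier2* and -0.59 to 1.10 for *Zfp36*. Between tumors and tumor-derived organoids they were -1.78 to 0.95 for *Egr1*, -0.63 to 0.39 for *Dusp1* and -0.43 to 0.49 for *Zfp36*. Without T3-mes the sign of *Egr1* and *Ier2* turned in the comparison with clones and in that of mes with epi lines, and that of *Egr1* in the comparison with tumors.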
